A study of Mus musculus with 24 samples.

Results

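The DNA replication machinery was followed as 43 genes whose products license origins, unwind DNA, copy it and join the new strands. The genes were taken by symbol from a list written by step, namely licensing with 9 genes, the helicase with 14, the polymerases with 9, and the clamp, strand binding and ligation with 11. All 43 were found among the 21671 genes of each file, and all 43 passed the filter on low values in each fit. RNA-Seq was performed on splenic cells of C57/Bl6 mice at 8 weeks of age. Mice were Trp53+/+ or Trp53-/-, the latter lacking the transcription factor p53 in every cell and not only in the cells studied. They were either left as unstressed controls (mock) or collected 4 h after 7 Gy of whole-body ionizing radiation (IR). After lysis of red blood cells, B cells were enriched with B220 MicroBeads by magnetic sorting, and what passed through the column served as non-B cells. For each cell type and treatment there were 4 Trp53+/+ and 2 Trp53-/- samples, which gave 8 groups and 24 samples.

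Replication starts when the origin recognition complex, Cdc6 and Cdt1 load the MCM2-7 ring onto DNA before S phase, and geminin (Gmnn) keeps Cdt1 from loading it again. The kinase Cdc7 with its partner Dbf4, together with Cdc45, the GINS complex and Mcm10, turns the ring into an active helicase, after which polymerase alpha with primase, polymerase delta and polymerase epsilon copy the strands with the clamp PCNA. Many of these genes are transcribed around the entry into S phase, under factors of the E2F family, and most splenic lymphocytes of an unstressed mouse do not divide. p53 activates Cdkn1a, the gene of the kinase inhibitor p21, which holds cells before S phase.

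Values are RPKM, the reads of a gene per kilobase of its length, scaled to the reads on exons of the sample, so that levels may also be compared between genes. The number of reads behind each sample, estimated from the steps between low values, was between 4.79 and 11.06 M (mega), and a single read on a gene of 2 kb was worth 0.0452 to 0.104 RPKM. B cells had summed levels of 9 B cell markers of 980 to 1246 RPKM and of 10 T cell markers of 71.5 to 184 RPKM. The corresponding sums of the flow-through were 239.7 to 672 and 395 to 827 RPKM, and the non-B samples thus still held B cell transcripts. Among the T cell markers, Cd2 alone was at 92.2 to 109 RPKM in mock B cells and at 69.6 to 108 RPKM in mock non-B cells. In mock Trp53+/+ samples, 9 of the 10 T cell markers were called lower in B cells. Cdkn1a was at 69.6 to 97.8 RPKM in the irradiated Trp53+/+ samples and at 0.562 to 2.63 in all Trp53-/- samples. The Trp53 row kept 21.6 to 41.8 RPKM in Trp53-/- samples. In mock samples it was at 21.6 to 25.0 RPKM in Trp53-/- and at 43.4 to 49.5 RPKM in Trp53+/+ samples, without overlap. In irradiated non-B cells the genotypes overlapped in this row, at 34.6 to 36.4 RPKM in Trp53-/- and 35.0 to 38.6 RPKM in Trp53+/+ samples. A set of libraries stood apart before any comparison. Trp53+/+ mock non-B replicates 1 and 2 had summed erythroid markers of 706 and 695 RPKM and summed mitotic markers of 486 and 458, against 224 and 263 and against 129 and 152 in replicates 3 and 4. Some irradiated Trp53+/+ libraries also held reads in many genes silent in the spleen. The share of 1440 olfactory and vomeronasal receptor genes with an RPKM above 0 was 5.42 to 9.31% in all mock samples, 36.7, 47.3, 7.01 and 16% in irradiated Trp53+/+ B cells and 24.7, 8.61, 51.3 and 35.8% in irradiated Trp53+/+ non-B cells. Among irradiated Trp53-/- libraries, B cell replicate 2 had the highest share, at 13.1%, and the other 3 had 6.88 to 8.61%.

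The sequence upstream of these genes is shown because E2F sites are the feature best known to be shared by replication genes. The RefSeq promoter table, on build GRCm38.p6 and not on the mm9 build of the expression files, held 35 of the 43 members, and it did not hold Gins1, Gins2, Gins4, Gmnn, Mcm4, Pole, Prim2 and Rfc2. Windows ran from 250 bases before to 50 bases after the transcription start. The 4 words TTTCCCGC, TTTCGCGC, TTTGCCGC and TTTGGCGC, which are forms of the E2F site, were searched on both strands. At least 1 of them was present in 15 of the 35 members (42.9%), against 2.605% of the 27025 gene symbols in the table. Of the 17 members in the table whose response to IR in B cells was lower in Trp53+/+ than in Trp53-/- mice, 8 held a word, and of the 17 members without a call in that comparison, 7 did. The 180 bases before the start are printed for Mcm6, Mcm5, Cdc6 and Pola1, called lower in that comparison with a word inside these bases, and for Orc5, the member called in the opposite direction, which held none of the 4 words. Capitals mark the matches. The first and second matches in Mcm6 overlap each other on opposite strands, and so do both matches in Mcm5. A match is a description of the letters and no evidence of a bound factor.
Mcm6 (chr1:128359706-128359885, minus strand): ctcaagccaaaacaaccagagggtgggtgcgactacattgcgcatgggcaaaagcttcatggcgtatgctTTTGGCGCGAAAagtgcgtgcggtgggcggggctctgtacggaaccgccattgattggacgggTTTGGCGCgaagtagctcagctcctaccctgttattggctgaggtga
Mcm5 (chr8:75109329-75109508, plus strand): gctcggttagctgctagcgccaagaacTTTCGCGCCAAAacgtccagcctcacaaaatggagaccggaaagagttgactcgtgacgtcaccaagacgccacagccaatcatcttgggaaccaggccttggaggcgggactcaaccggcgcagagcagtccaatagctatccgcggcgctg
Cdc6 (chr11:98907971-98908150, plus strand): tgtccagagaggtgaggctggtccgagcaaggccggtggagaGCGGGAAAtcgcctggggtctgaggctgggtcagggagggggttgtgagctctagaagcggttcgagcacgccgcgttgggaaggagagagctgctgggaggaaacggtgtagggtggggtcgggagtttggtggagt
Pola1 (chrX:93632156-93632335, minus strand): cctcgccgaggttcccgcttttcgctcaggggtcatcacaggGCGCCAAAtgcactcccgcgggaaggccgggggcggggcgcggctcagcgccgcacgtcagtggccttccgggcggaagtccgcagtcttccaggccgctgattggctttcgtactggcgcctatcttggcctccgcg
Orc5 (chr5:22550339-22550518, minus strand): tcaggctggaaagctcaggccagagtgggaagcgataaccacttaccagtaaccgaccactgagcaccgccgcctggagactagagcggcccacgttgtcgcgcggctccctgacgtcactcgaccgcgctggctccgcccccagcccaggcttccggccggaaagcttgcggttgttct

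In unstressed B cells, the members spanned a wide range of levels, and none was called between the genotypes. The group means ran from 2.46 RPKM for Mcm10 to 70.1 RPKM for Pcna, with a median of 18.0 RPKM over the members, in Trp53+/+ B cells, and from 1.40 for Mcm10 to 68.5 for Pcna in Trp53-/- B cells. The spread between the 4 Trp53+/+ mock B samples had a median coefficient of variation of 12.5% over the members and was widest for Cdc6, at 49.6%. No member was called between the genotypes in mock B cells, where 0.0506% of the 13821 genes tested were called in either direction by limma. A call is an adjusted p under 0.05 with an absolute log2 fold change above 0.58 on the scale of log2(RPKM + 0.5). An unadjusted p under 0.05 was reached by 4 members and by 589 of the 13821 genes. Without overlap between the genotypes, 2 members were higher and 4 lower in Trp53-/- cells, where 10.1% and 8.39% of all genes were, and with 2 Trp53-/- samples a missing call does not show equal levels. In mock non-B cells, too, limma called no member between the genotypes, where 0.0428% of 14018 genes were called. There, 3 members and 705 of all genes had an unadjusted p under 0.05.

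In Trp53+/+ B cells, 9 of the 43 members were called after IR. Orc5 rose, and Gmnn, Mcm10, Gins1, Pold1, Rfc1, Rfc2, Lig1 and Rpa3 fell, with 4 of these 8 in the clamp, strand binding and ligation group. Without the threshold on the fold change, 4 members passed higher and 15 lower, where 3515 and 3569 of all 13821 genes did. These 9 called members compare with a background of 24.7% of the 13821 genes called in either direction, 12.5% higher and 12.2% lower, so that the share of members called in either direction, 9 of 43, was near that of all genes. The median log2 fold change was -0.14 over the members and 0.01 over all genes, and 13 members were lower and 3 higher without overlap between the groups, where 23.3% and 22.9% of all genes were. In bulk samples, fewer cells of a type and less RNA per cell cannot be told apart.

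Among the licensing genes, Orc5, a subunit of the origin recognition complex, was the member that rose. It was at 21.6, 19.6, 18.3 and 16.2 RPKM in the mock and at 35.7, 31.8, 43.4 and 41.2 RPKM in the irradiated samples. All irradiated samples lay above all mock samples (log2 fold change 0.99, SE 0.11, adjusted p = 9.94e-06). An annotated pseudogene, Gm15421, shares 353 exonic bases with Orc5 on the same strand. Gmnn, the inhibitor of Cdt1, was at 12.8, 8.25, 9.58 and 6.93 RPKM in mock and at 6.59, 5.54, 5.42 and 6 RPKM in irradiated samples. The groups did not overlap, although mock replicate 4 lay just above the highest irradiated sample (log2 fold change -0.60, SE 0.15, adjusted p = 0.00568). The other 5 Orc genes, Cdc6 and Cdt1 had log2 fold changes between -0.49 for Cdc6 and 0.33 for Orc2 and were not called. Orc2 and Cdt1 (0.25) passed the adjusted p alone, with all 4 irradiated Cdt1 samples above all 4 mock samples.

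The MCM2-7 ring was not called in any of its 6 subunits, whose log2 fold changes lay between -0.52 for Mcm4 and 0.33 for Mcm7. Groups did not overlap for Mcm4 (21.5 to 29.1 RPKM in mock, 14.2 to 19.6 irradiated) and Mcm6 (17.5 to 24.6 and 13.4 to 16.1), both lower. Mcm7 was higher without overlap, at 41.8 to 51.5 RPKM in mock and 54.7 to 61.1 RPKM in irradiated samples. Mcm10, which helps to activate the loaded ring, was a gene of low level, at 3.54, 2.25, 2.46 and 1.59 RPKM in mock and 1.72, 1.15, 1.21 and 1.33 RPKM in irradiated samples. Its groups overlapped, since mock replicate 4 lay below irradiated replicate 1 (log2 fold change -0.65, SE 0.20, adjusted p = 0.0154). Gins1, a subunit of the GINS complex, was at 7.47, 4.33, 5.09 and 4.13 RPKM in mock and 3.49, 2.51, 3.11 and 3.67 RPKM in irradiated samples, without overlap (log2 fold change -0.61, SE 0.18, adjusted p = 0.0115). Cdc45, Gins2, Gins3, Gins4, Cdc7 and Dbf4 were not called, and Dbf4 had the lowest value of them at -0.51, without overlap between its groups.

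Pold1, the catalytic subunit of polymerase delta, was the polymerase gene that fell. It was at 41.1, 43.7, 38.6 and 43.2 RPKM in mock and at 22.5, 22, 24.5 and 25.8 RPKM in irradiated samples. Each irradiated sample was far below each mock sample (log2 fold change -0.80, SE 0.08, adjusted p = 5e-06). Pold2, the second subunit of the same enzyme, was at 26.4, 22.1, 19.7 and 18.8 RPKM in mock and 24.9, 23.9, 23.9 and 27.5 RPKM in irradiated samples, with overlapping groups and no call (log2 fold change 0.21, SE 0.10, adjusted p = 0.0847). The other 7 polymerase genes lay between -0.38 for the primase subunit Prim2 and 0.22 for the primase subunit Prim1 and were not called. Prim2 and Pold3 were lower in irradiated samples without overlap.

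In the last group, the falls that were called concerned the loader, the ligase and a strand-binding subunit. Rfc1, the large subunit of the clamp loader, was at 36, 36.1, 33.8 and 35.9 RPKM in mock and 20.3, 19.7, 19.1 and 19.4 RPKM in irradiated samples, with a narrow spread in both groups (log2 fold change -0.84, SE 0.05, adjusted p = 8.67e-08). Lig1, the ligase that joins Okazaki fragments, was at 11.1, 9.23, 9.62 and 8.42 RPKM in mock and 6.38, 5.61, 3.58 and 5.26 RPKM in irradiated samples. Its groups did not overlap (log2 fold change -0.84, SE 0.15, adjusted p = 0.000562). Rpa3, the small subunit of the single-strand binding protein RPA, was at 25, 23.2, 24 and 17.3 RPKM in mock and 11.2, 11.1, 17 and 12.3 RPKM in irradiated samples. Mock replicate 4 lay just above irradiated replicate 3 (log2 fold change -0.78, SE 0.14, adjusted p = 0.000569). Rfc2, another loader subunit, passed narrowly (-0.59), whereas Pcna, the clamp itself, and Fen1, the flap nuclease, had values of 0.17 and 0.22 and were not called. Rpa1, another subunit of RPA, was at 42.3 to 45.1 RPKM in mock and 29.3 to 32.8 RPKM in irradiated samples, without overlap and without a call.

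Of the 9 calls, those of Orc5, Pold1, Rfc1 and Lig1 held under all 19 alternatives that kept the call thresholds, Rpa3 was lost in 1, with Trp53+/+ replicates 3 and 4 only, and Gmnn, Mcm10, Gins1 and Rfc2 were lost in 3 to 8, among them leaving out mock replicate 1. With an absolute log2 fold change above 1 no member was called. Without mock replicate 1 the count was 5, and with replicates 3 and 4 only it was also 5. Of 14 mitotic markers, 10 fell in the same comparison and none of them was at 0 in any sample. Their summed level was 80.4 to 182 RPKM in mock and 70.9 to 89.7 RPKM in irradiated samples. Of 15 erythroid markers, 11 fell, with sums of 106 to 206 and 76.4 to 84.7 RPKM. Their part in the values of the members was not tested.

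In Trp53-/- B cells, 17 of the 43 members rose after IR and none was called lower, with 7 of the 14 helicase genes, 5 of the 9 polymerase genes, 4 of the 9 licensing genes and 1 of the 11 genes of the clamp, strand binding and ligation group. This compares with a background of 13.1% of the 13821 genes called higher and 24.3% in either direction. The median log2 fold change was 0.47 over the members and 0.02 over all genes. The summed RPKM of the members was 815 and 831 in the 2 mock samples and 1198 and 1065 in the 2 irradiated samples. With 2 samples a group, 35 members were higher and 3 lower without overlap, where 39.5% and 32% of all genes were.

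Among the licensing genes of Trp53-/- B cells, Orc2, Orc6, Cdc6 and Gmnn rose. Cdc6, the loader of the MCM ring, was at 1.04 and 1.81 RPKM in mock and at 4.34 and 3.8 RPKM in irradiated samples (log2 fold change 1.27, SE 0.42, adjusted p = 0.0274). Gmnn was at 7.07 and 7.16 RPKM in mock and 13 and 11.4 RPKM in irradiated samples (log2 fold change 0.74, SE 0.22, adjusted p = 0.0162). Orc5, which rose in Trp53+/+ B cells, was at 20 and 19.4 RPKM and at 26.3 and 22.2 RPKM and was not called (log2 fold change 0.29, SE 0.15, adjusted p = 0.153).

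All 6 subunits of the MCM2-7 ring had positive values, from 0.37 for Mcm4 to 1.08 for Mcm2, and Mcm2, Mcm3, Mcm5 and Mcm6 were called. Mcm2 was at 20.2 and 21.8 RPKM in mock and 49.7 and 40.6 RPKM in irradiated samples (2.11-fold, log2 fold change 1.08, SE 0.13, adjusted p = 4.86e-05). Gins1 was at 3.2 and 3.81 RPKM in mock and 9.38 and 8.24 RPKM in irradiated samples (log2 fold change 1.22, SE 0.25, adjusted p = 0.00203). Mcm10 was at 1.43 and 1.37 RPKM in mock and 3.52 and 2.93 RPKM in irradiated samples (log2 fold change 0.97, SE 0.28, adjusted p = 0.015). Cdc45, which joins the ring and GINS in the active helicase, rose as well, with 1.14.

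Of the polymerase genes, Pola1, Prim1, Pold2, Pole and Pole2 rose in Trp53-/- B cells. Pold2 was at 19 and 20.6 RPKM in mock and 50 and 46.7 RPKM in irradiated samples (log2 fold change 1.27, SE 0.13, adjusted p = 1.84e-05). Its partner Pold1 was at 45.9 and 42.9 RPKM in mock and 46.1 and 36.3 RPKM in irradiated samples, with overlapping groups (log2 fold change -0.12, SE 0.11, adjusted p = 0.457). Fen1, which trims the flaps of Okazaki fragments, was the only called member of the clamp, strand binding and ligation group. It was at 28.5 and 30.8 RPKM in mock and 60.2 and 56.2 RPKM in irradiated samples (log2 fold change 0.96, SE 0.16, adjusted p = 0.000549). Fen1 and the long non-coding gene Gm10143 share 1909 exonic bases on opposite strands, and the library kit does not keep the strand. How reads on these bases were assigned cannot be told from the values. Lig1 was at 7.67 and 6.4 RPKM and 9.39 and 9.8 RPKM and was not called (0.43).

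Of the 17 calls in Trp53-/- B cells, 12 held under all 14 alternatives that kept the call thresholds, and Orc6, Cdc6, Gmnn, Mcm6 and Mcm10 were lost in 1 to 3 of them. Without irradiated replicate 1 the count was 12, without irradiated replicate 2 it was 20, and with an absolute log2 fold change above 1 it was 6. Of the 14 mitotic markers, none was called in these cells, and their summed level was 93.4 and 93.2 RPKM in mock and 103 and 95.3 RPKM in irradiated samples. None of the 15 erythroid markers was called either. Their sums differed between replicates, at 72.3 and 264 RPKM in mock and 72.3 and 165 RPKM in irradiated samples.

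**Figure D1:**
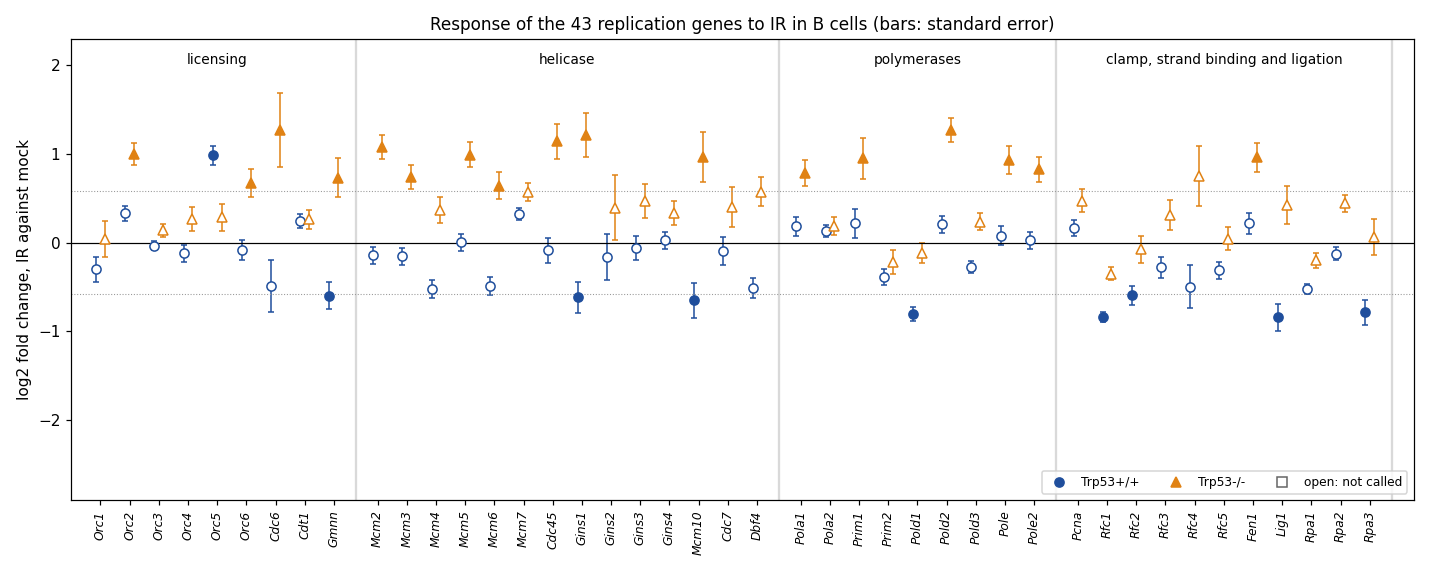
Log2 fold change after IR (vertical axis, on the scale of log2(RPKM + 0.5)) of each of the 43 members in B cells, ordered by step along the horizontal axis, for Trp53+/+ (circles, 4 against 4 samples) and Trp53-/- (triangles, 2 against 2 samples). Bars are standard errors, filled symbols are called and dotted lines mark 0.58. The 17 filled triangles all lie above 0, whereas 8 of the 9 filled circles lie below it.

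The response of B cells to IR differed between the genotypes for 22 members when the difference itself was tested. It was lower in Trp53+/+ than in Trp53-/- cells for 21 members and higher for Orc5. The background was 5.43% of the 13821 genes called lower, 6.56% called higher and 12% in either direction. The median difference was -0.67 over the members and -0.06 over all genes, and 42 of the 43 members had a negative difference. By step, 4 of the 9 licensing genes, 9 of the 14 helicase genes, 5 of the 9 polymerase genes and 3 of the 11 genes of the clamp, strand binding and ligation group were called lower.

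The largest difference was that of Gins1 (-1.83 on the log2 scale, SE 0.31, adjusted p = 0.00167). With the values given above, it was lower after IR in Trp53+/+ and higher after IR in Trp53-/- cells, without overlap in either genotype. Cdc6 differed by -1.76 on the log2 scale, SE 0.51, adjusted p = 0.0311, and it was at 4.75, 2.85, 2.97 and 1.18 RPKM in mock and 2.1, 2.19, 1.35 and 1.54 RPKM in irradiated Trp53+/+ samples, where the groups overlapped. Mcm10 differed by -1.62 on the log2 scale, SE 0.34, adjusted p = 0.00693. Lig1 (-1.27), Cdc45 (-1.23) and Mcm2 (-1.22) followed close behind Gmnn (-1.34). Within the MCM2-7 ring, Mcm2, Mcm3, Mcm4, Mcm5 and Mcm6 were called, from -1.22 to -0.89, and Mcm7 was not (-0.25). Orc5 differed in the other direction (0.70 on the log2 scale, SE 0.19, adjusted p = 0.0221).

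For these 2 subunits of polymerase delta, Pold1 and Pold2, the difference came with a fall of Pold1 and with a rise of Pold2. Pold1 differed by -0.69 on the log2 scale, SE 0.14, adjusted p = 0.00549, with a call in Trp53+/+ cells and none in Trp53-/- cells. Pold2 differed by -1.06 on the log2 scale, SE 0.17, adjusted p = 0.00108, with a call in Trp53-/- cells and none in Trp53+/+ cells. The clamp Pcna had -0.30, the 5 loader subunits had values from -1.25 for Rfc4 to -0.36 for Rfc5, and none of these 6 was called. Of the 22 calls, 11 held under all 22 alternatives that kept the call thresholds, namely Gmnn, Mcm2, Mcm3, Mcm4, Mcm5, Mcm6, Gins1, Mcm10, Dbf4, Pold2 and Lig1. Cdc6 was lost in 8 alternatives, among them leaving out Trp53-/- mock replicate 1 or either irradiated Trp53-/- sample, Orc5 in 4 and Pola1 in 15. With Trp53+/+ replicates 3 and 4 only, 14 members were called, and with an absolute log2 difference above 1, 10 were. Of the 14 mitotic markers, 13 had a negative difference and 3 were called lower, with a median of -0.82. Of the 15 erythroid markers, 14 had a negative difference and 2 were called lower, with a median of -1.07. Their part in the difference of the members was not tested.

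**Figure D2:**
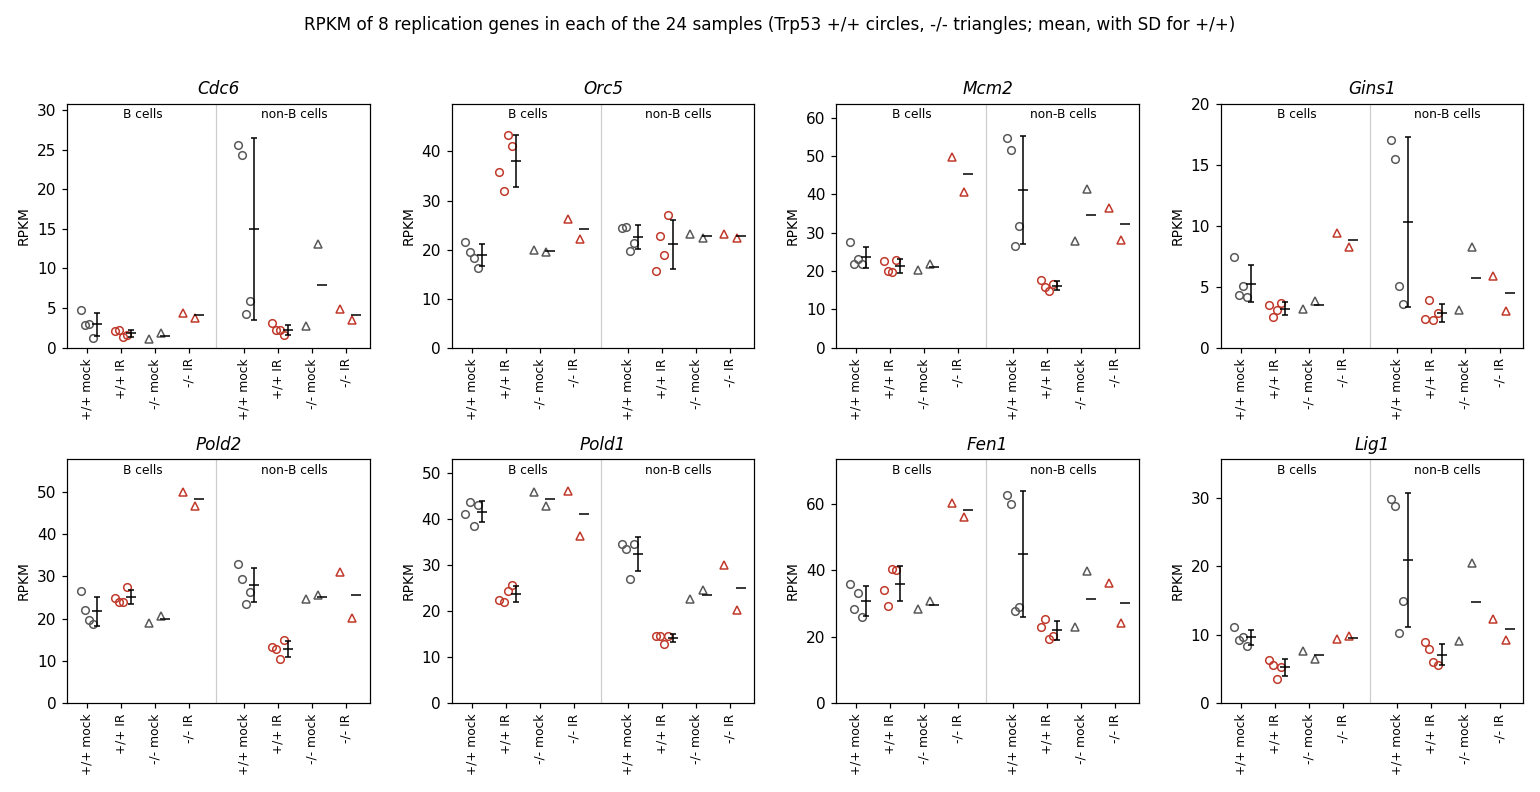
RPKM (vertical axis, from 0) of Cdc6, Orc5, Mcm2, Gins1, Pold2, Pold1, Fen1 and Lig1 in each of the 24 samples, by cell type, genotype and treatment (horizontal axis); circles are Trp53+/+ and triangles Trp53-/- samples, and black marks are means with the SD for the groups of 4. In mock Trp53+/+ non-B cells, Cdc6 stood at 25.5 and 24.3 RPKM in replicates 1 and 2 and at 4.27 and 5.94 in replicates 3 and 4.

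In Trp53+/+ non-B cells, the members were lower after IR throughout, but much of the size of this difference came with mock replicates 1 and 2. All 43 members had a negative log2 fold change, with a median of -0.70 against -0.03 over all genes, and 20 were called, all of them lower. The background was 4.11% of the 14018 genes called lower and 9.85% in either direction, and 27 members were lower without overlap, where 12.1% of all genes were. The summed RPKM of the members was 1302, 1229, 778 and 843 in mock replicates 1 to 4 and 598, 632, 582 and 669 in the irradiated samples. Replicates 1 and 2 both lay above replicates 3 and 4 in 39 of the 43 members, and the share of all genes in this order was not counted. With replicates 3 and 4 only, 3 members were called (Mcm2, Pold1 and Pold2), 38 of 43 were negative and the median was -0.30. With replicates 1 and 2 only, 35 were called. Each subset left out irradiated samples as well, and the share of all genes called was not counted under them. The median over all genes was -0.01 with replicates 3 and 4 only and -0.04 with replicates 1 and 2 only. Irradiated replicates 3 and 4 had receptor shares of 51.3 and 35.8%.

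Cdc6 had the largest fall of the licensing genes. It was at 25.5, 24.3, 4.27 and 5.94 RPKM in mock and 3.12, 2.22, 2.18 and 1.54 RPKM in irradiated samples. The groups did not overlap, and the mock samples formed a high and a low pair (log2 fold change -2.13, SE 0.58, adjusted p = 0.0274). Gmnn was at 24.9, 22, 8.65 and 11.2 RPKM in mock and 6.61, 8.42, 5.89 and 6.47 RPKM in irradiated samples, with mock replicate 3 just above irradiated replicate 2 (log2 fold change -1.11, SE 0.34, adjusted p = 0.0422). Orc6 was at 23.2, 22.4, 10.1 and 12.7 RPKM in mock and 8.84, 8.25, 8.57 and 9.76 RPKM in irradiated samples (log2 fold change -0.83, SE 0.24, adjusted p = 0.0318). Cdt1 was called too (-0.79), and Orc3, Orc4 and Orc5 had values of -0.04, -0.10 and -0.12 without a call.

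All 6 subunits of the MCM2-7 ring fell, with log2 fold changes from -0.71 for Mcm4 to -1.26 for Mcm2 and the levels after IR at 0.613 and 0.418 times those of the controls. Mcm2 was at 54.8, 51.6, 26.6 and 31.8 RPKM in mock and 17.6, 15.7, 14.7 and 16.7 RPKM in irradiated samples, and both pairs of mock samples lay above all irradiated samples (log2 fold change -1.26, SE 0.22, adjusted p = 0.00313). Gins2 was at 19.7, 16.8, 6.2 and 5.69 RPKM in mock and 3.58, 2.85, 2.53 and 2.9 RPKM in irradiated samples (log2 fold change -1.67, SE 0.40, adjusted p = 0.0169). Its exons share 2758 bases with those of Gse1 on the opposite strand, and how reads on these bases were assigned cannot be told from the values. Mcm10 was at 15.5, 13.6, 3.01 and 3.9 RPKM in mock and 2.32, 2, 1.76 and 1.69 RPKM in irradiated samples (log2 fold change -1.66, SE 0.52, adjusted p = 0.045). Dbf4 was called as well, whereas Gins1 had a log2 fold change of -1.45 with overlapping groups and no call.

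Of the subunits of polymerase delta, Pold1 and Pold2 fell and Pold3 was not called (-0.32), with overlapping groups. Pold1 was at 34.7, 33.5, 26.9 and 34.7 RPKM in mock and 14.7, 14.7, 12.9 and 14.7 RPKM in irradiated samples (log2 fold change -1.15, SE 0.12, adjusted p = 0.000104). Pold2 was at 32.8, 29.4, 23.5 and 26.3 RPKM in mock and 13.4, 12.8, 10.4 and 14.9 RPKM in irradiated samples (log2 fold change -1.09, SE 0.15, adjusted p = 0.00066). In both genes the lowest mock sample was well above the highest irradiated sample, and with replicates 3 and 4 only the values were -1.12 and -0.97. Prim2, a subunit of the primase, was at 13.5, 13.8, 7.15 and 8.14 RPKM in mock and 5.56, 5.7, 5.18 and 7.18 RPKM in irradiated samples. Mock replicate 3 lay just below irradiated replicate 4 (log2 fold change -0.75, SE 0.22, adjusted p = 0.0341). Pole2 was the other called polymerase gene (-0.67).

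Lig1, Rfc4 and Fen1 fell among the genes of the clamp, strand binding and ligation group. Lig1 was at 29.8, 28.8, 10.3 and 14.9 RPKM in mock and 8.88, 7.87, 5.96 and 5.6 RPKM in irradiated samples (log2 fold change -1.40, SE 0.34, adjusted p = 0.0179). Rfc4, a subunit of the clamp loader, was at 25.5, 21.4, 8.13 and 9.51 RPKM in mock and 5.26, 6.08, 6.11 and 6.76 RPKM in irradiated samples (log2 fold change -1.19, SE 0.34, adjusted p = 0.032). Fen1 was at 62.7, 60.1, 27.9 and 29 RPKM in mock and 22.8, 25.4, 19.2 and 20.3 RPKM in irradiated samples (log2 fold change -0.92, SE 0.28, adjusted p = 0.042). In all of these 3 genes, mock replicates 1 and 2 lay far above replicates 3 and 4. Pcna was at 87.7, 86, 69.4 and 67 RPKM in mock and 50.4, 60.4, 53.1 and 54.6 RPKM in irradiated samples, without overlap and without a call (-0.49).

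Pold1 was the only one of the 20 calls that held under all 19 alternatives with the call thresholds kept. The count was 11 without mock replicate 1, 10 without mock replicate 2, 12 without irradiated replicate 1, 12 without irradiated replicate 2 and 10 without irradiated replicate 3. Without the 3 irradiated libraries with a receptor share above 20% it was 3, with a single irradiated sample left, and the median over the members was -0.72 with 42 of 43 negative. Of the 15 erythroid markers 9 were called lower, with summed levels of 224 to 706 RPKM in mock and 62 to 179 RPKM in irradiated samples, and of the 14 mitotic markers 4 were called lower, with 129 to 486 and 78.8 to 169 RPKM. Car1 was the erythroid marker at 0 in a sample, in the irradiated group. Their part in the fall of the members was not tested.

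In Trp53-/- non-B cells, limma called no member after IR, no member had an unadjusted p under 0.05, and the median log2 fold change was near 0. Without mock replicate 1 that median was -0.21 and without mock replicate 2 it was 0.23, so that its sign rested on single libraries. The background was 0.442% of the 14018 genes called in either direction, and 2222 genes had an unadjusted p under 0.05. The spread between the 2 mock samples was wide, since the summed RPKM of the members was 775 and 1022 in mock and 944 and 821 in irradiated samples. Cdc6 was at 2.77 and 13.1 RPKM in mock and 4.88 and 3.46 RPKM in irradiated samples, so that both irradiated samples lay between the mock samples. Mcm2 was at 27.9 and 41.3 RPKM in mock and 36.5 and 28.1 RPKM in irradiated samples, also with overlap. Summed erythroid markers were 119 and 508 RPKM and summed mitotic markers 112 and 282 RPKM in these mock samples, with replicate 2 the higher in both.

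The response of non-B cells differed between the genotypes for Pold1 and Pold2, which were both lower in Trp53+/+ cells. The background was 2.82% of the 14018 genes called lower and 6.55% in either direction, and all 43 members had a negative difference, with a median of -0.81 against -0.02 over all genes. The median was -0.46 without Trp53-/- mock replicate 1, with 41 members negative, and -0.33 with Trp53+/+ replicates 3 and 4 only, with 39 negative. All 15 erythroid markers had a negative difference too, with a median of -1.84 and 1 called lower, and so had all 14 mitotic markers, with a median of -0.77 and none called. Their part in these values was not tested. Pold1 differed by -1.22 on the log2 scale, SE 0.21, adjusted p = 0.00728, and it was at 22.6 and 24.6 RPKM in mock and 30 and 20.3 RPKM in irradiated Trp53-/- samples. Pold2 differed by -1.09 on the log2 scale, SE 0.26, adjusted p = 0.029, and it was at 24.7 and 25.5 RPKM in mock and 31.1 and 20.1 RPKM in irradiated Trp53-/- samples. In both genes the irradiated Trp53-/- samples lay on either side of the mock samples. With Trp53+/+ replicates 3 and 4 only, neither was called and the values were -1.18 and -0.97. Only Pold1 was called, a count of 1, without either Trp53-/- mock sample, Trp53-/- irradiated replicate 1, Trp53+/+ mock replicate 2 or Trp53+/+ irradiated replicate 3, and 6 members were called without Trp53+/+ mock replicate 3.

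**Figure D3:**
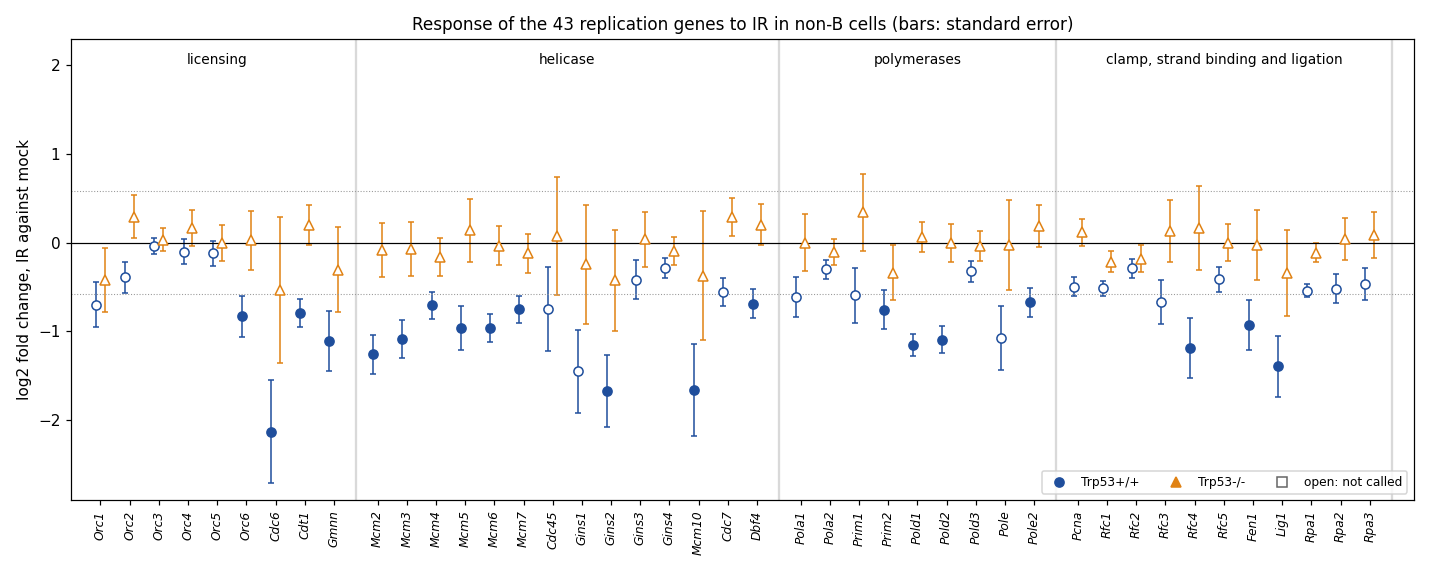
Log2 fold change after IR (vertical axis) of the 43 members in non-B cells, drawn as for B cells, with standard errors as bars and filled symbols for calls. All circles (Trp53+/+) lie below 0 and 20 are filled, whereas the triangles (Trp53-/-) lie on both sides of 0 and none is filled.

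Between unstressed Trp53+/+ B and non-B cells, 10 members were called, all of them lower in B cells, against a background of 17.2% of 14598 genes called lower and 24.6% in either direction, so that the share of members called was near that of all genes. They were Orc1, Cdc6 and Gmnn among the licensing genes, Mcm2, Cdc45, Gins2, Mcm10 and Dbf4 among the helicase genes, and Pole2 and Lig1. The median log2 difference, B minus non-B, was -0.41 over the members. B and non-B samples were fitted as independent, although the study's methods describe both as separated from the same spleens. The difference was largest for Cdc6 (-1.90 on the log2 scale, SE 0.47, adjusted p = 0.00399), where mock B replicate 1 at 4.75 RPKM lay above mock non-B replicate 3 at 4.27 RPKM. Mcm10 (-1.42) and Cdc45 (-1.17) came next. Cdc45 was at 4.85, 3.69, 4.16 and 3.06 RPKM in mock B cells and at 18.2, 16.4, 3.55 and 6.86 RPKM in mock non-B cells. With replicates 3 and 4 only, the median was -0.07 and 4 members were called, 2 in each direction, among which Cdc6 and Pole2 were lower in B cells. With quantile normalization, 7 members were called lower and 1 higher. The count was 4 without mock non-B replicate 1, 6 without replicate 2, 19 without replicate 3 and 17 without replicate 4. Of the 15 erythroid markers 10 were called lower in B cells, with a median of -2.16, and of the 14 mitotic markers 8, with a median of -1.13. Their part in the difference of the members was not tested.

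After IR, 7 members were called between the cell types, all of them higher in B cells. This share was near that of all genes called higher and below that of all genes called in either direction. Orc2, Orc5, Cdt1, Pold1, Pold2, Rfc3 and Fen1 were higher in irradiated Trp53+/+ B cells than in irradiated Trp53+/+ non-B cells, and no member was called lower. The background was 15.3% of the 14598 genes called higher and 35.6% in either direction, and with median-ratio scaling 6 members were called higher and 1 lower. Pold2 had the largest value (0.94 on the log2 scale, SE 0.12, adjusted p = 6.1e-06), and its irradiated B samples all lay above its irradiated non-B samples. Cdt1 was at 25.8, 25.9, 25.5 and 25.6 RPKM in irradiated B cells and 15.6, 13.7, 12.5 and 14.7 RPKM in irradiated non-B cells (log2 fold change 0.85, SE 0.12, adjusted p = 1.22e-05).

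The response to IR itself was higher in B than in non-B cells for 14 members, against a background of 9.88% of genes called higher and 18.8% in either direction, and lower for none. These were Orc2, Orc5 and Cdt1, then Mcm2, Mcm3, Mcm5, Mcm7 and Gins2, then Pola1, Pold2, Pole and Pole2, and last Pcna and Fen1. Cdc6 had the largest difference of the response and was not called (1.64 on the log2 scale, SE 0.67, adjusted p = 0.077). Gins2 came next (1.5 on the log2 scale, SE 0.48, adjusted p = 0.0273), with 6.74, 2.67, 5.68 and 3.81 RPKM in mock and 3.27, 3.81, 4.68 and 4.1 RPKM in irradiated B cells, which overlapped, beside the fall in non-B cells given above. Pold2 had the third (1.30 on the log2 scale, SE 0.17, adjusted p = 6.43e-05). Pcna differed by 0.67 on the log2 scale, SE 0.14, adjusted p = 0.00239, and it was at 72.4, 68.3, 80.4 and 59.3 RPKM in mock and 78.6, 76.5, 82.5 and 76.7 RPKM in irradiated B cells. Reads from the annotated pseudogenes Pcna-ps1 and Pcna-ps2 could be counted with it. Of the 15 erythroid markers, 5 were called higher in this comparison, with a median of 1.23, and of the 14 mitotic markers 13 were positive and none was called, with a median of 0.70, beside a median of 0.55 over the members. Their part in the result was not tested. Orc5, Cdt1, Mcm7 and Pold2 held under all 26 alternatives that kept the call thresholds, and 7 members were called with replicates 3 and 4 only and 5 without the irradiated libraries with a receptor share above 20%.

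**Figure D4:**
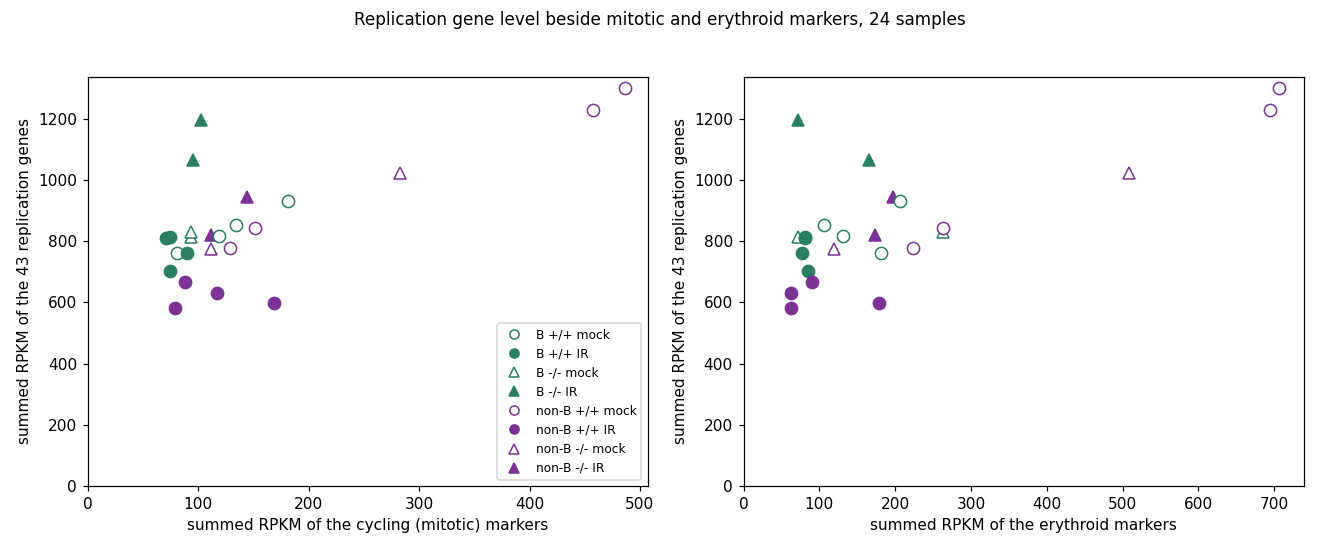
Summed RPKM of the 43 members (vertical axis) against the summed RPKM of the mitotic markers (left) and of the erythroid markers (right) in the 24 samples, all axes from 0, with B cells in green, non-B cells in purple, Trp53+/+ as circles, Trp53-/- as triangles and irradiated samples filled. Mock Trp53+/+ non-B replicates 1 and 2 lie at the upper right of both panels at 1302 and 1229 RPKM, and the irradiated Trp53-/- B samples lie at 1198 and 1065 RPKM with mitotic sums of 103 and 95.3.

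Genes that act beside the machinery were counted from a further list of 35 symbols, of which 33 were in the files. In Trp53+/+ B cells, 4 of the 33 fell and 1 rose, where 12.2% of all genes were called lower and 12.5% higher. The share that fell was thus near that of all genes. Dscc1, a subunit of an alternative clamp loader, had -1.34, Top2a, the topoisomerase of dividing cells, -0.95, and Asf1b, a histone chaperone, -0.79, while Pole3, a histone-fold subunit of polymerase epsilon, rose by 0.83. In Trp53-/- B cells 7 rose and none fell, where 13.1% of all genes were called higher. Recql4, a helicase, was at 1.31, Uhrf1, which couples DNA methylation to replication, at 1.26, Pole3 at 1.07 and Asf1b at 0.76. The difference between the genotypes was called for 8 in B cells, all lower in Trp53+/+, where 5.43% of all genes were called lower. Uhrf1 was at -1.90, Top2a at -1.58, Asf1b at -1.54 and Recql4 at -1.20. Pole3 thus rose in both genotypes. In Trp53+/+ non-B cells 7 fell and none rose, among them Uhrf1 at -1.83 and Dscc1 at -1.46, where 4.11% of all genes were called lower. In Trp53-/- non-B cells none was called, where 0.442% of all genes were called in either direction.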

How the data were processed

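RNA was sequenced from splenic B and non-B cells, 24 samples in 8 groups set by the labels. Per the labels and the study's methods, RNA was depleted of ribosomal RNA and libraries were made with a kit that does not keep the strand. The authors masked bases of low quality, ran TopHat against the mm9 genome, removed duplicates so that a single copy of each read stayed, assigned reads to genes with featureCounts and deposited RPKM, scaled to the reads on exons. Removing duplicates compresses the values of highly expressed genes. The authors tested counts with DESeq2, which RPKM does not allow.

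Here, R 4.3.3 and limma 3.58.1 with a mean-variance trend were applied to log2(RPKM + 0.5), which understates the change of low genes. For each cell type, 12 samples were fitted with 4 group means, and genes entered when any Trp53+/+ sample exceeded an RPKM of 1. A fit of the 16 Trp53+/+ samples compared the cell types over 14598 genes. P-values were adjusted by Benjamini-Hochberg over all genes tested. Within a group, a replicate is a mouse. The fit between the cell types took its samples as independent, although both cell types were separated from the same spleens. The scripts were tested on simulated data with a spread set in advance, which was the same in all groups and drawn for each gene on its own. Of changes of 0.8 on the log2 scale, 87 of 100 were called in Trp53+/+ B cells and 18 of 50 in Trp53-/- B cells. For the genotype difference in B cells 13 of 50 were called, and for the response between the cell types 43 of 100. Of changes of 1.5, the counts in the same order were 100 of 100, 50 of 50, 44 of 50 and 99 of 100. In the data, the members had a median coefficient of variation of 12.5% in mock Trp53+/+ B cells. In mock Trp53+/+ non-B cells it was 27.4%, and replicates 1 and 2 were shifted together. The counts for the response between the cell types thus need not hold for these data. Whether replicate numbers pair samples was checked by the correlation of deviations from the group means. In non-B cells the mock and irradiated Trp53+/+ samples of a number correlated by 0.33, 0.155, 0.22 and 0.329. Mock replicates 1 and 4 matched their own number best, whereas replicate 2 matched number 1 and replicate 3 matched number 4. This rests on the values and not on the labels. The main fits held no pairing, and the numbers entered only in the replicate block, as an alternative. In B cells the correlations were 0.01 to 0.0906. Per-sample values are given for members by a rule of rank within each step and comparison. The members, lists and tests were chosen with earlier results of these data known. Depth was estimated from the spacing of low values with GENCODE gene lengths of NCBIM37, and 74.5 to 84.6% of these values fell closer than 0.1 to a whole number of reads. Chance gives 20% for a depth fixed in advance. Here the depth was chosen to bring these same values close to whole reads, so the share is no independent check. Python 3.11.15 with pandas 2.3.3 and matplotlib 3.10.9 did the rest. Alternatives were 2 other pseudocounts, 2 filters, 2 scalings, a replicate block, subsets of replicates and other thresholds.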

Additional observations from a re-analysis of the deposited data

Results flagged for a closer look

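Among the 172 groups of 4 Trp53+/+ samples, 1 for each member and group, 6 (3.49%) held a sample that stood apart from the other 3 by Dixon's criterion at 95%, and chance gives about 1 in 20. Mock B replicate 1 was the highest for Pole2 (10.4 RPKM), Rfc5 (22.9 RPKM) and Rpa2 (19.3 RPKM), and mock B replicate 3 was the lowest for Rfc1 (33.8 RPKM). Pold1 was lowest in replicate 3 of mock (26.9 RPKM) and of irradiated non-B cells (12.9 RPKM).

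The response to IR differed between the genotypes in B cells, by the test of the difference itself, for 22 members. The differences, Trp53+/+ minus Trp53-/- on the log2 scale, were those of Orc2 (-0.67), Orc5 (0.70), Orc6 (-0.75), Cdc6 (-1.76), Gmnn (-1.34), Mcm2 (-1.22), Mcm3 (-0.89), Mcm4 (-0.89), Mcm5 (-0.99), Mcm6 (-1.13), Cdc45 (-1.23), Gins1 (-1.83), Mcm10 (-1.62), Dbf4 (-1.08), Pola1 (-0.60), Pold1 (-0.69), Pold2 (-1.06), Pole (-0.85), Pole2 (-0.80), Fen1 (-0.74), Lig1 (-1.27) and Rpa3 (-0.85). In non-B cells they were those of Pold1 (-1.22) and Pold2 (-1.09). The response differed between the cell types of Trp53+/+ mice for 14 members, B minus non-B on the log2 scale, namely Orc2 (0.72), Orc5 (1.10), Cdt1 (1.03), Mcm2 (1.12), Mcm3 (0.94), Mcm5 (0.96), Mcm7 (1.08), Gins2 (1.5), Pola1 (0.80), Pold2 (1.30), Pole (1.15), Pole2 (0.70), Pcna (0.67) and Fen1 (1.14). Of these differences, 11 in B cells and 4 between the cell types held under every alternative that kept the call thresholds, and none of the differences in non-B cells did.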

How the results depend on the processing

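No member called in the main comparison changed its direction in any alternative. Medians over the members of comparisons without a call did: for the genotypes in mock non-B cells it was -0.18, 0.15 with Trp53+/+ replicates 3 and 4 only and 0.03 without Trp53-/- mock replicate 1, and in mock B cells it was -0.05 and 0.02 with replicates 3 and 4 only. The count of called members stayed within 1.5 times the main count in 183 recalculations and moved further in 43. For the subsets of samples, the share of all genes called was not counted. Taking the log2 threshold to 1 gave 0 members for IR in Trp53+/+ B cells, 10 in Trp53+/+ non-B cells, 6 in Trp53-/- B cells, 10 for the genotype difference in B cells, and 4, 0 and 8 for B against non-B cells in mock, after IR and in response. Without that threshold the counts were 19 for Trp53+/+ B cells, and 20 and 15 for the cell types in mock and after IR. Of all 14598 genes compared between the cell types, 2588 passed higher and 3403 lower in mock, and 4704 and 4072 after IR. With Trp53+/+ replicates 3 and 4 only, they were 5 and 3 for IR in B and non-B cells, 14 and 0 for the genotype difference, and 4, 12 and 7 for the cell types. With replicates 1 and 2 only, they were 35 in non-B cells, 13 for the genotype difference in non-B cells, and 26 and 23 for the cell types in mock and in response. Without irradiated libraries with a receptor share above 20%, 3 members were called in non-B cells, where the single irradiated sample left was assumed to vary like the other groups, 1 for the genotype difference in non-B cells, and 6, 4 and 5 for the cell types. Quantile normalization gave 12 for the cell types after IR. Pseudocounts, filters and median-ratio scaling moved no count by more than 1.5 times.

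Leaving out 1 sample at a time, the counts ranged from 5 to 12 for IR in Trp53+/+ B cells, 10 to 26 in Trp53+/+ non-B cells, 12 to 20 in Trp53-/- B cells, 15 to 25 and 1 to 6 for the genotype difference in B and non-B cells, and 4 to 19, 6 to 8 and 11 to 19 for the cell types in mock, after IR and in response. The cause was not tested. The replicate block gave 22 members for IR in Trp53+/+ non-B cells and 3 for the genotype difference there. In B cells, the replicate block gave 9, 17 and 21 members. By the study's methods, B and non-B cells were separated from the same spleens. The sources used here do not tie the replicate numbers to mice. Deviations of same-numbered B and non-B samples correlated by -0.102 to 0.351, so that the numbers were not taken as pairs. The SE and adjusted p between the cell types therefore leave the shared origin out of account. The replicate block gave 11, 7 and 17 members for the cell types. Of the members called without it, the block lost Pola1 in the genotype difference in B cells and changed no other call. With 2 Trp53-/- samples a group, small differences in these mice could not be detected, and members of low level such as Mcm10 rest on few reads.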
